A study of Mus musculus with 8 samples.

Results

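The Hippo pathway genes examined here are 10 of the 53465 genes in the expression table of embryonic mouse ventricles. They were chosen by name: the kinases Lats1 and Lats2, the junctional protein Amotl2, the coactivators Yap1 and Wwtr1, the transcription factors Tead1 and Tead4, the cofactor Vgll4, and the target genes Ctgf and Cyr61. The last pair is listed as Ccn2 and Ccn1 in current annotation. All 10 were found and all 10 passed the filter on low counts.

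RNA-seq was performed on heart ventricles at embryonic day 15.5 (E15.5), with 4 wild-type (WT) libraries and 4 libraries labelled Nrg-1flox;Cdh5-CreERT2. Per the series description, each replicate is 1 ventricle. In the second genotype, a tamoxifen-inducible Cre driven by the endothelial Cdh5 promoter is meant to delete floxed Nrg1, which encodes the growth factor neuregulin-1. The labels do not give the sex of the embryos, the time of tamoxifen, or whether the WT embryos received tamoxifen or carried Cre or floxed alleles. Because the sources used here do not say how the embryos are related, p-values measure the spread between these libraries.

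The libraries held 16761763 to 24144272 expected counts. The targeted gene was not lower in the group labelled for its deletion. Nrg1 was at 4.87 ± 0.636 CPM (counts scaled to a common library size) in WT and 6.17 ± 0.611 CPM (SD, n = 4) in the other group. The log2 difference was 0.34 (SE 0.120, edgeR's adjusted p = 0.311). A sum over all exons in whole ventricles cannot show whether a floxed segment was lost in endothelial cells. The deletion could thus not be checked, and these libraries are called Flox, after their labels, and not mutants. Cardiomyocyte markers were present throughout, with a summed level of 49741 to 54645 CPM in WT and 48490 to 55219 CPM in Flox libraries for all 11 genes listed. Of the 8 libraries, 7 held more than 20 counts both of Xist, transcribed from the inactive X chromosome, and of Y-linked genes. WT library 4 held Xist at 0.18 CPM. Both kinds of transcript together would not be expected from 1 embryo of either sex. These 7 libraries therefore did not bear out the description of 1 ventricle per replicate. Whether they hold RNA of more than 1 embryo was not tested. Xist reached 206 CPM in WT and spanned 103 to 327 CPM in Flox libraries, with 3 of 4 Flox libraries above every WT library. The summed level of 4 Y-linked genes spanned 69.3 to 171 CPM in WT and 42.9 to 119.9 CPM in Flox libraries, with 3 of 4 Flox libraries below every WT library, and its part in the differences between the groups was examined only as a covariate. Ttn, whose mRNA is the longest of the markers examined, stood at 1835 CPM in WT library 2 and 1597 CPM in Flox library 4, while the other 6 lay between 2498 and 3648 CPM. For the 10 genes, fits without both of these libraries, without 1 library, or with the Y-linked sum as a covariate are given where they turned a sign or moved a log2 fold change by over 1.5 times.

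The Hippo pathway restrains organ growth through a kinase cascade. The kinases STK3 and STK4, with the scaffold SAV1, activate LATS1 and LATS2, which work with MOB1 proteins. LATS kinases phosphorylate YAP (Yap1) and TAZ (Wwtr1) and hold them in the cytoplasm, and the unphosphorylated proteins enter the nucleus and bind TEAD factors on DNA. In the fetal heart, YAP and TEAD1 are known to promote cardiomyocyte proliferation. Much of this regulation acts on the proteins, so transcript levels do not measure the activity of the pathway.

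TEAD factors bind the sequence GGAATG, or CATTCC when it is read on the other strand. Upstream sequences of a pair of known targets are shown because these genes are the transcriptional output of the pathway, and Amotl2 had the smallest p of the 10. Each run is the 150 bases before an annotated RefSeq start on GRCm38.p6, written in the direction of transcription, with the motif in capitals. The Amotl2 run is on the plus strand at chr9:102717654-102717803, and the Cyr61 run is on the minus strand at chr3:145649986-145650135. The Amotl2 run lies inside the gene's span of 102716672 to 102733418, so it precedes an internal start.
Amotl2: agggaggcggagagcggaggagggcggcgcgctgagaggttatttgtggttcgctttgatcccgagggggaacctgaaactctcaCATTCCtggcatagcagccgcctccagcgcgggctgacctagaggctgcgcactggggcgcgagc
Cyr61: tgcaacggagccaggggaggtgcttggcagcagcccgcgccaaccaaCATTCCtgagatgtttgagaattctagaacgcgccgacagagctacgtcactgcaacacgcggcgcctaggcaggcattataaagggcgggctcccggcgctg
The motif began 65 bases before the start in Amotl2 and 103 bases before it in Cyr61. Within 250 bases before the start, on either strand, it was also present once in each window of Yap1, Wwtr1 and Vgll4, and in no window of Lats1 or Lats2. The windows of Lats2 and Vgll4 also lie inside the genes' spans given below, so they do not cover the outermost start. In all, 5 of the 7 genes with an entry held it, in 6 of 9 windows, where the 2 windows of Wwtr1 overlap and share 1 site. Over the same 250 bases, 12.64% of the 32851 windows in the RefSeq table held it. Such matches are descriptions of letters and do not show binding.

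To ask whether these genes differ between the genotypes, the groups were compared with edgeR's quasi-likelihood test over 15388 genes. None of the 10 genes passed a false discovery rate (FDR) of 0.05, where the background was 0.526% of tested genes. Amotl2 and Lats2 were the only members whose groups did not overlap, both with higher Flox levels, against 3.07% of tested genes that did not overlap in that direction and 2.98% in the other. They were also the 2 members with an unadjusted p below 0.05, against 10.5% of tested genes. DESeq2 called 1 of the 10, Amotl2, against 198 of 14493 genes in all. Limma voom called 0 of the 10, against 57 of 15388. All 10 differences were small. The largest absolute log2 fold change was 0.14, and the median absolute value was 0.052, beside 0.059 over all tested genes and 0.044 over the 10366 genes within the range of levels of the 10.

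The upstream part of the pathway was examined first, and values are given in the order of libraries 1 to 4 throughout. Amotl2 (ENSMUSG00000032531, GRCm38 chromosome 9, 102716672 to 102733418, plus strand) encodes an angiomotin-family protein of cell junctions that binds YAP and is itself a YAP target. It was at 125.6, 127.4, 120.2 and 120.8 CPM across WT and at 140.3, 140.7, 130.1 and 132.3 CPM in Flox libraries. Every Flox library thus lay above the highest WT library, the smallest gap being between 127.4 and 130.1 CPM. On the log2 scale this was a difference of 0.14 (SE 0.0362, 95% interval 0.060 to 0.22), which did not pass (edgeR, adjusted p = 0.134). DESeq2, run as an alternative, was the only fit that put Amotl2 below the threshold, with an adjusted p of 0.047 from its Wald test at a log2 fold change of 0.14. The adjusted p of its 16 alternatives ranged from 0.047 to 0.487.

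Lats2 (ENSMUSG00000021959, chromosome 14, 57689662 to 57758388, minus strand) encodes a kinase that phosphorylates YAP and TAZ, and the gene is a known YAP target in feedback. It was at 84.1, 82.9, 85.2 and 78.5 CPM across WT and at 92.1, 90.1, 88.5 and 87.0 CPM in Flox libraries. The groups did not overlap, although WT library 3 and Flox library 4 were separated by less than the SD of either group. The difference came to 0.11 on the log2 scale (SE 0.0333, 95% interval 0.042 to 0.19, adjusted p = 0.192 in edgeR). Without both libraries low in Ttn, it was 0.13 with edgeR's adjusted p = 0.158. With the Y-linked sum as a covariate it was 0.079 (unadjusted p = 0.0638, adjusted p = 0.556 in edgeR). Gm49361, which shares 42.4% of the exonic bases of Lats2 on the same strand, was listed at 0 in every library.

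Lats1 (ENSMUSG00000040021, chromosome 10, 7681214 to 7716460, plus strand), the paralogous kinase, was at 36.4, 35.0, 39.0 and 38.3 CPM in WT libraries, and in Flox libraries at 37.0, 37.9, 38.1 and 40.4 CPM. These ranges overlapped, and 1 Flox library exceeded the highest WT value. On the log2 scale this was a difference of 0.043 (SE 0.0449, 95% interval -0.054 to 0.14), which did not pass (edgeR, adjusted p = 0.815). Its sign turned without both libraries low in Ttn, to -0.0081, and it was 0.11 (unadjusted p = 0.0475, adjusted p = 0.519 in edgeR) with the Y-linked sum as a covariate. When 1 library was left out, it ranged from 0.015 without WT library 2 to 0.068 without WT library 3.

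The level of Lats2 exceeded that of Lats1 in every library when scaled by exonic length. Per kilobase of exon, Lats2 was at 11.9 ± 0.426 CPM and Lats1 at 5.10 ± 0.252 CPM (SD, n = 4) in WT. The ratio of these levels, Lats2 over Lats1, was 2.14 to 2.48 in WT and 2.26 to 2.61 in Flox libraries, so the groups overlapped.

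**Figure D1:**
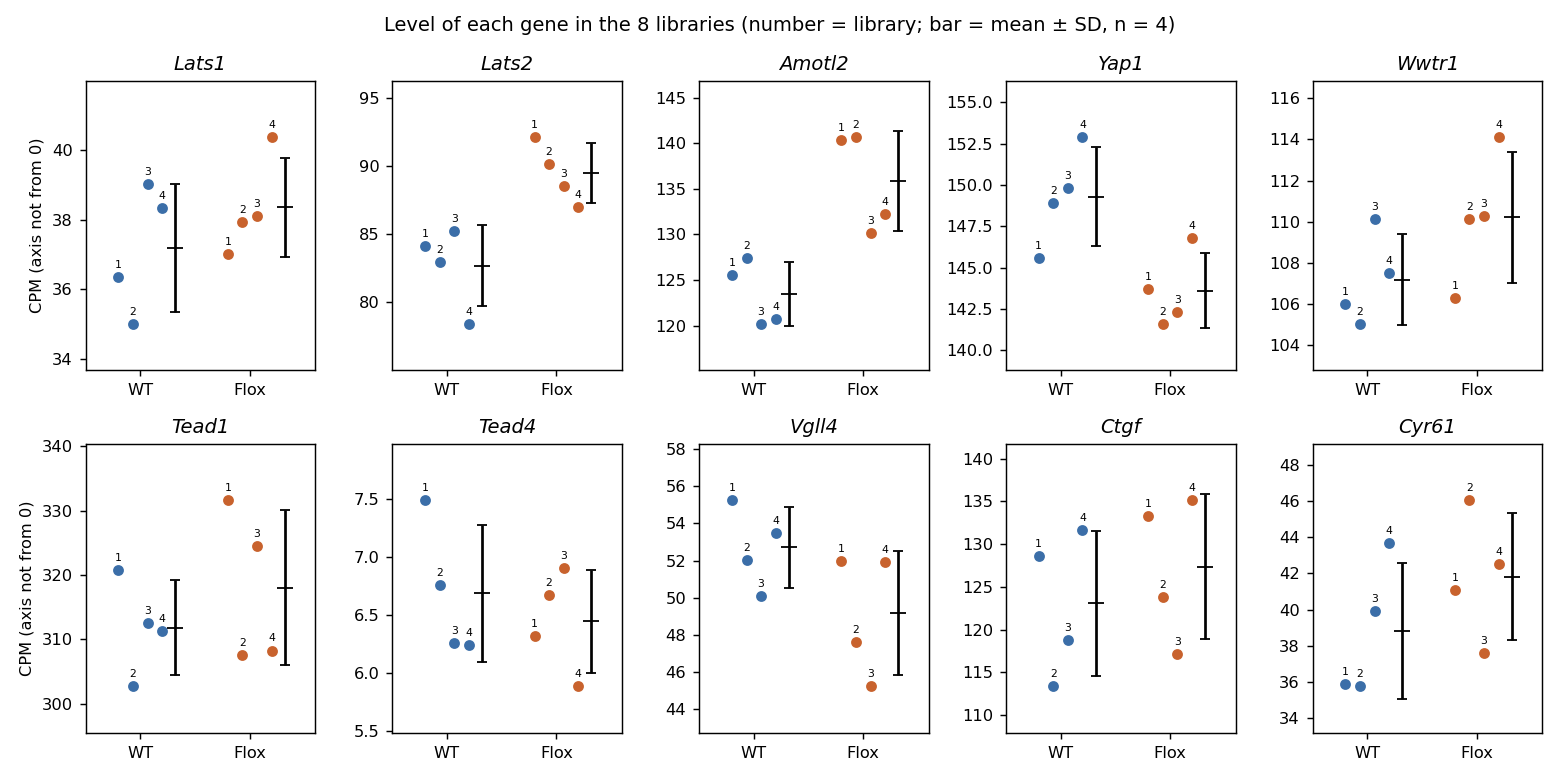
Level of the 10 genes in each library, in TMM-scaled CPM on axes that do not start at 0. Points are the 4 WT (blue) and 4 Flox (orange) libraries, numbered as labelled, and bars give mean ± SD. The groups are separated for Lats2 and Amotl2 and overlap for the other 8.

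The coactivators were then compared. Yap1 (ENSMUSG00000053110, chromosome 9, 7931999 to 8004596, minus strand) was at 145.6, 148.9, 149.8 and 152.9 CPM across WT and at 143.7, 141.6, 142.3 and 146.8 CPM in Flox libraries. In 3 of the 4 Flox libraries it was below the lowest WT library, and in library 4 it was within the WT range. The difference came to -0.056 on the log2 scale (SE 0.0299, 95% interval -0.12 to 0.0084, adjusted p = 0.557 in edgeR). With the Y-linked covariate it was -0.032. Yap1 had the smallest SE of the 10 genes, and the bounds of its interval correspond to ratios of 0.919 and 1.01.

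Wwtr1 (ENSMUSG00000027803, chromosome 3, 57455649 to 57575910, minus strand), which encodes TAZ, was at 106.0, 105.1, 110.1 and 107.5 CPM in WT and at 106.3, 110.1, 110.3 and 114.1 CPM in Flox libraries. The ranges overlapped, with Flox library 1 close to the lower end of WT. On the log2 scale this was a difference of 0.040 (SE 0.0314, 95% interval -0.028 to 0.11), which did not pass (edgeR, adjusted p = 0.723). It was 0.024 without Flox library 4, 0.015 without both libraries low in Ttn, and 0.064 with the Y-linked covariate.

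The small differences of Yap1 and Wwtr1 pointed in opposite directions. The ratio of Yap1 to Wwtr1, both as CPM per kilobase of exon, was 0.709, 0.732, 0.702 and 0.734 in WT libraries 1 to 4. In Flox libraries 1 to 4 it came to 0.698, 0.664, 0.666 and 0.664. The Flox ratios were all below the WT ratios, although Flox library 1 missed the lowest WT value by less than the SD of either group. This ratio was computed over chosen genes and is given without a test. The share of other gene pairs whose ratios separate the groups was not computed. Which coactivator gene has more transcripts depended on the length used: per kilobase of all exons, WT means were 16.1 CPM for Yap1 and 22.4 CPM for Wwtr1, and per kilobase of the longest transcript they were 28.3 and 22.8 CPM.

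**Figure D2:**
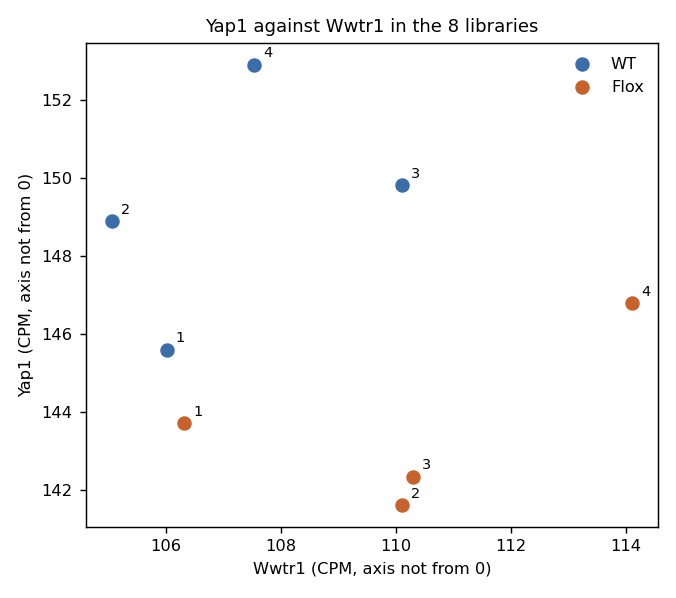
Yap1 against Wwtr1 in each library, in TMM-scaled CPM on axes that do not start at 0; points are numbered as labelled, WT in blue and Flox in orange. Yap1 was at 141.6 to 146.8 CPM in Flox libraries, with 3 of them below every WT library and Flox library 4 above WT library 1. Wwtr1 overlapped between the groups, and Flox library 1 lies closest to WT library 1.

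Of the DNA-binding partners, Tead1 (ENSMUSG00000055320, chromosome 7, 112679318 to 112906807, plus strand) had the highest CPM of the 10 genes. It was at 320.8, 302.7, 312.6 and 311.4 CPM in WT and at 331.7, 307.7, 324.6 and 308.3 CPM in Flox libraries. The groups overlapped widely. The difference came to 0.029 on the log2 scale (SE 0.0346, 95% interval -0.046 to 0.10, adjusted p = 0.85 in edgeR), and it ranged from 0.0093 without Flox library 1 to 0.046 without Flox library 2.

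Tead4 (ENSMUSG00000030353, chromosome 6, 128224288 to 128300823, minus strand), a paralogue, was the least abundant of the 10, with 99.7 to 162 expected counts per library. It was at 7.49, 6.76, 6.26 and 6.24 CPM in WT and at 6.32, 6.67, 6.90 and 5.89 CPM in Flox libraries. Its log2 fold change of -0.049 had the largest SE of the 10, at 0.0985 (95% confidence interval -0.26 to 0.16, edgeR's adjusted p = 0.923). The sign turned to 0.0098 without WT library 1, the value was -0.0041 without both libraries low in Ttn, and it was -0.14 with the Y-linked covariate. Without Flox library 4 it was -0.010, without WT library 3 -0.078, without WT library 4 -0.079, and without Flox library 3 -0.083.

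All 4 TEAD genes were expressed, at very unequal levels. Per kilobase of exon, Tead2 made up 46.1% ± 1.59 and Tead1 43.0% ± 1.25 of their summed level in WT (SD, n = 4), while Tead3 held 7.50% ± 0.371 and Tead4 3.47% ± 0.293. In Flox libraries these shares were 45.7% ± 1.13, 43.3% ± 0.89, 7.65% ± 0.359 and 3.31% ± 0.26 (SD, n = 4). The shares of Tead1 and Tead2 overlapped neither with those of Tead3 nor with those of Tead4 in any library, and each share overlapped between the groups. The share of Tead2 was higher than that of Tead1 over the 8 libraries, at 44.6% to 48.2% against 41.4% to 44.0%.

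Vgll4 (ENSMUSG00000030315, chromosome 6, 114860628 to 114969994, minus strand) encodes a cofactor that competes with YAP for TEAD. It was at 55.3, 52.0, 50.1 and 53.5 CPM in WT libraries and at 52.0, 47.6, 45.2 and 51.9 CPM in Flox libraries. Flox libraries 2 and 3 were below the lowest WT value, and the other 2 were within the WT range. On the log2 scale this was a difference of -0.10 (SE 0.0489, 95% interval -0.21 to 0.0034), which did not pass (edgeR, adjusted p = 0.494). It was -0.064 without Flox library 3 and -0.060 with the Y-linked covariate.

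The target genes encode matricellular proteins, which are secreted and modulate signalling in the matrix. Ctgf (ENSMUSG00000019997, chromosome 10, 24595442 to 24598683, plus strand) was at 128.6, 113.4, 118.8 and 131.6 CPM in WT libraries and at 133.3, 123.8, 117.1 and 135.2 CPM in Flox libraries. In both groups, libraries 1 and 4 were higher than libraries 2 and 3, and the groups overlapped. The difference came to 0.048 on the log2 scale (SE 0.0545, 95% interval -0.070 to 0.17, adjusted p = 0.833 in edgeR). It was -0.018 without both libraries low in Ttn. With the summed level of the Y-linked genes as a covariate it was 0.14 (unadjusted p = 0.0150, adjusted p = 0.391 in edgeR). Leaving out 1 library gave 0.011 (without WT library 2) to 0.086 (without Flox library 3). Gm15270 shares 23.2% of the exonic bases of Ctgf on the opposite strand and held 23.3 to 51.2 expected counts, against 2297 to 2996 for Ctgf.

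Cyr61 (ENSMUSG00000028195, chromosome 3, 145646976 to 145649981, minus strand) was at 35.9, 35.8, 39.9 and 43.7 CPM in WT libraries and at 41.1, 46.1, 37.6 and 42.5 CPM in Flox libraries. It varied most among WT libraries of the 10 genes, with a coefficient of variation of 9.71%, against 2.01% for Yap1. On the log2 scale this was a difference of 0.11 (SE 0.0713, 95% interval -0.047 to 0.26), which did not pass (edgeR, adjusted p = 0.649). Adding the Y-linked level to the model gave 0.19 (unadjusted p = 0.0398, adjusted p = 0.502 in edgeR), and leaving out both libraries low in Ttn gave 0.064. Without 1 library it ranged from 0.056 (without Flox library 2) to 0.17 (without WT library 4). Per kilobase of exon, Ctgf was at 43.0 ± 2.96 CPM and Cyr61 at 19.2 ± 1.87 CPM (SD, n = 4) in WT, and Ctgf was 1.90 to 2.53 times as high as Cyr61 over the 8 libraries.

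The order of the 10 genes per kilobase of exon in WT began with Ctgf, followed by Tead1 at 23.0, Wwtr1 at 22.4, Amotl2 at 19.6, Cyr61 at 19.2, Yap1 at 16.1, Lats2 at 11.9, Vgll4 at 9.77, Lats1 at 5.10 and Tead4 at 1.86 CPM. Among WT libraries the levels of Tead1 and Wwtr1 overlapped, with SDs of 0.543 and 0.462 CPM, as did those of Amotl2 and Cyr61, with SDs of 0.563 and 1.87 CPM, whereas other neighbours in this order did not overlap. The order held in Flox libraries, where Ctgf was at 44.5 and Tead4 at 1.79 CPM. It is tied to exonic length: per kilobase of the longest transcript, Vgll4 was at 24.0 CPM, above Lats2 at 15.9 CPM.

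The wider pathway was described with lists of 55 genes in all, of which 45 are not among the 10. Of the 42 others that were tested, 0 passed in either direction in edgeR's test, 7 had an unadjusted p below 0.05, and their median log2 fold change was 0.0066, beside -0.0012 over all tested genes. DESeq2 called 1 of these others, Ajuba. For these and each list below, markers included, 10.5% of all tested genes had an unadjusted p below 0.05 in edgeR's test. DESeq2's background was 198 of 14493 genes called, and limma voom's was 57 of 15388. In the kinase module, 0 of 15 genes passed in edgeR's test, DESeq2 or limma voom, 2 had an unadjusted p below 0.05, and the median was 0.042. Without Lats1 and Lats2 the median was 0.0076, and 1 gene had an unadjusted p below 0.05. Stk3, Stk4, Sav1, Mob1a, Mob1b and Nf2, the core and its upstream activator, had log2 fold changes of 0.044, -0.023, 0.042, -0.044, -0.013 and 0.061. Taok3, a kinase that can act on STK3 and STK4, had the smallest p of the module's other genes. It was at 12.9, 12.3, 12.8 and 12.6 CPM in WT and at 11.0, 10.3, 11.1 and 12.2 CPM in Flox libraries, without overlap (log2 fold change -0.19, SE 0.0710, edgeR's adjusted p = 0.364). Taok1, with the next smallest p, had a log2 fold change of 0.044 and overlapping groups.

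Among 11 upstream and junctional regulators, 0 passed in edgeR's test, 4 had an unadjusted p below 0.05, and the median was 0.023. Without Amotl2 the median was 0.014, and 2 genes higher and 1 lower in Flox libraries had an unadjusted p below 0.05. DESeq2 called 2 of the 11, Ajuba and Amotl2, and limma voom 0. Ajuba, a LIM-domain protein that binds and restrains LATS kinases, had the smallest p of the pathway genes. It was at 42.7, 43.3, 37.7 and 43.0 CPM in WT and at 49.6, 45.3, 48.6 and 51.3 CPM in Flox libraries. The groups did not overlap, and the difference on the log2 scale was 0.22 (SE 0.0517, 95% interval 0.11 to 0.33, edgeR's adjusted p = 0.0867). With no filter on low counts edgeR's adjusted p was 0.00484, and DESeq2 gave 0.0305. The related LIM protein Wtip was at 21.8 ± 0.884 and 23.7 ± 0.678 CPM (SD, n = 4), with groups that did not overlap, a log2 fold change of 0.12 and edgeR's adjusted p = 0.415. It was 0.028 after the GC and length correction, 0.077 without both libraries low in Ttn, and 0.18 with the Y-linked covariate. Of the angiomotin paralogues of Amotl2, Amotl1 had a log2 fold change of -0.073 (SE 0.0321, 95% interval -0.143 to -0.0037, edgeR's adjusted p = 0.444). Amot had one of -0.038 (SE 0.0727, 95% interval -0.195 to 0.120, edgeR's adjusted p = 0.915). Leaving out 1 library gave -0.094 to 0.013 for Amot, so its direction was not settled.

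Of 10 YAP, TAZ, TEAD and VGLL genes, 8 were tested, 0 passed in edgeR's test, DESeq2 or limma voom, 0 had an unadjusted p below 0.05, and the median was 0.016. Over the 3 tested that are not among the 10 genes described, the median was 0.044. Tead3 and Vgll3, the others with the smallest p, had log2 fold changes of 0.044 and 0.047. Vgll1 and Vgll2 held at most 1 count in a library. The target signature, a widely used list of 22 genes that YAP and TAZ activate in cultured cells, had 21 tested genes, of which 0 passed in edgeR's test and 5 had an unadjusted p below 0.05. DESeq2 called 1 of them, Amotl2, and limma voom 0. Its median was 0.023, and -0.0052 over the 17 that are not among the 10, where 8 had a positive and 9 a negative log2 fold change.

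**Figure D3:**
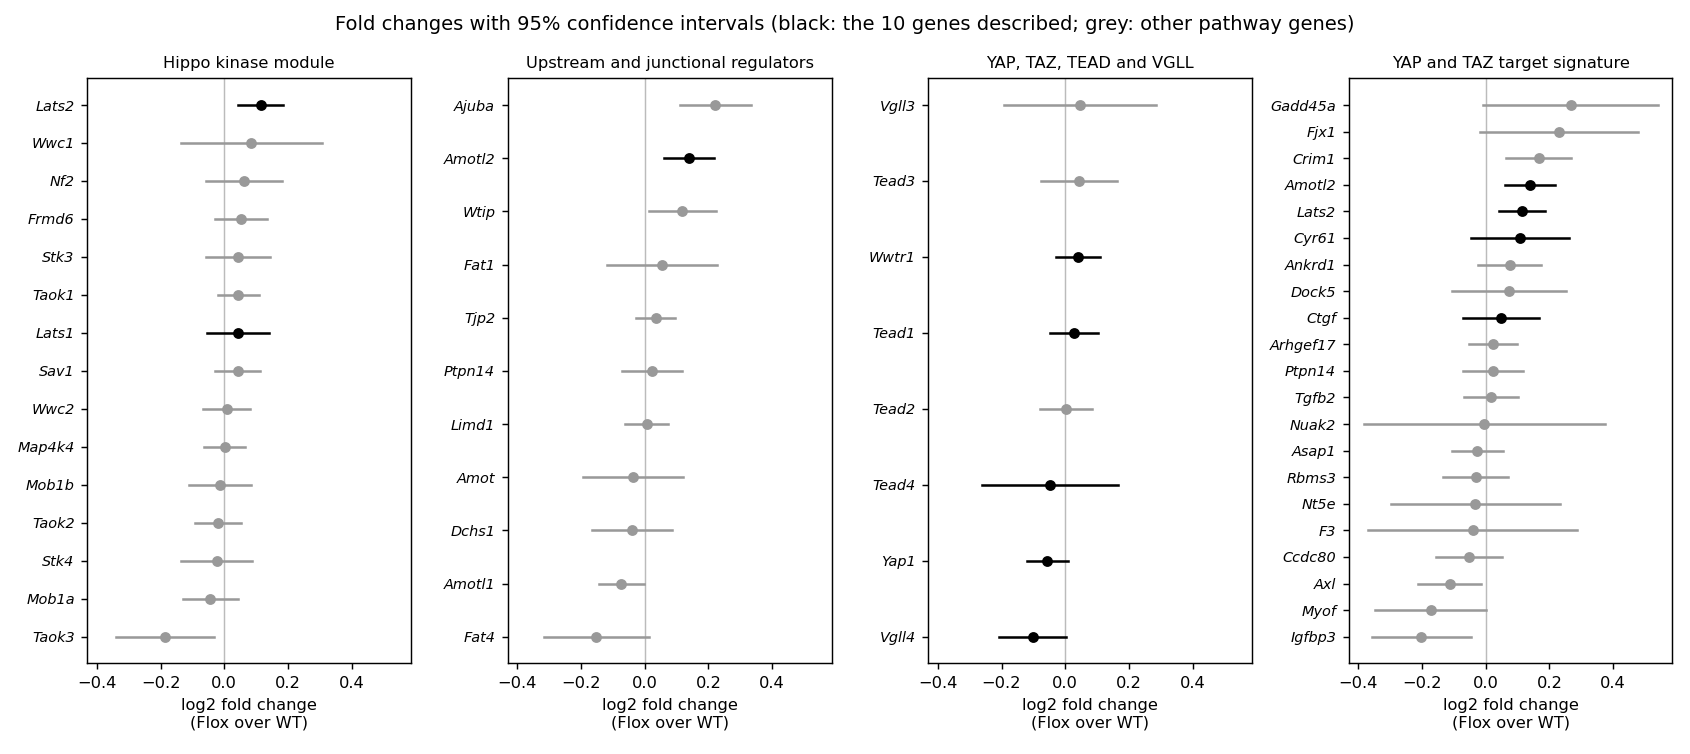
Log2 fold change of Flox over WT, with 95% confidence intervals, for the tested genes of the 4 pathway lists. Black marks the 10 genes described and grey the others. Most intervals include 0. Those of Ajuba (0.22), Crim1 (0.17), Amotl2 (0.14), Wtip (0.12) and Lats2 (0.11) lie above it. Those of Igfbp3 (-0.20), Taok3 (-0.19), Axl (-0.11) and Amotl1 (-0.073) lie below it. Gadd45a lies furthest from 0, at 0.27, with an interval that includes it.

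Within the signature, Crim1, a transmembrane protein that binds BMPs, was at 30.8, 31.2, 34.4 and 34.6 CPM in WT and at 35.8, 36.5, 37.5 and 37.4 CPM in Flox libraries. The groups did not overlap (log2 fold change 0.17, SE 0.0473, edgeR's adjusted p = 0.174). Igfbp3, which encodes an IGF-binding protein, went the other way, at 77.4, 62.8, 67.1 and 62.1 CPM in WT, and at 65.5, 56.5, 58.2 and 53.8 CPM in Flox libraries. Its groups overlapped, with a log2 fold change of -0.20 (SE 0.0711, edgeR's adjusted p = 0.316). It passed with the replicate block (edgeR's adjusted p = 0.0285) and with no filter (0.0195), and each Flox library was below the WT library of the same number. Ankrd1, a stress-responsive cardiomyocyte gene and the most abundant of the list, had a log2 fold change of 0.076 with edgeR's adjusted p = 0.612, and Axl, a receptor tyrosine kinase, one of -0.11 with edgeR's adjusted p = 0.399. The signature thus held genes with both signs.

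Ctgf and Cyr61 are also immediate early genes, which respond to handling and growth factors, so other genes of that kind were listed. Of 15 tested, 0 passed in edgeR's test, DESeq2 or limma voom and 3 had an unadjusted p below 0.05, with a median log2 fold change of 0.013. Their summed level was 299.7 to 315.4 CPM in WT and 314.6 to 327.9 CPM in Flox libraries. Jun had the smallest p, at 87.9 ± 6.06 CPM in WT and 97.9 ± 1.46 CPM (SD, n = 4) in Flox libraries, with a log2 difference of 0.16 and edgeR's adjusted p = 0.154 (0.0373 with no filter), and Atf3 followed at 0.17 (edgeR's adjusted p = 0.304). Egr1 was at 0.010 and Fos at -0.37, with edgeR's adjusted p of 0.985 and 0.467.

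Since these genes are expressed in several cell types, fewer cells of a type and less RNA per cell cannot be told apart in whole ventricles. Summed markers of endothelial cells, the cells in which Cre is meant to act, were at 1593 to 1654 CPM in WT and 1485 to 1615 CPM in Flox libraries, and 10 of 12 had negative log2 fold changes. Of these 12, 4 did not overlap between the groups, with lower Flox levels, and 6 had an unadjusted p below 0.05, against the 2.98% and 10.5% of all tested genes given above. Epicardial markers were at 161.9 to 172.6 and 170.8 to 193.2 CPM, with 7 of 7 positive. Fibroblast markers were at 5499 to 6492 and 5306 to 6426 CPM with 6 of 8 negative, and smooth muscle and pericyte markers at 1851 to 1946 and 1928 to 2022 CPM with 5 of 7 negative. The mean of the latter sum was higher in Flox libraries (1975 against 1895 CPM), whereas the median log2 fold change of these 7 genes was -0.11. Of the 7, 3 had an unadjusted p below 0.05 in edgeR's test. Erythroid, macrophage and atrial sums also overlapped, at 4268 to 9377 and 5848 to 9974 CPM, 77.7 to 109.7 and 87.9 to 123.9 CPM, and 1523 to 1737 and 1519 to 1679 CPM. Of 62 marker genes tested, 0 passed in edgeR's test, 13 had an unadjusted p below 0.05, and DESeq2 called 5 (Postn, Tie1, Acta2, Myh6 and Kdr). Listed markers at 0 in every library numbered 0, and their part in the differences of Amotl2 and Lats2 was not tested.

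The tested genes whose log2 CPM followed that of Yap1 most closely over the 8 libraries were Iglon5, Kdm4a and Hcn4, with Pearson's r of 0.976, 0.973 and 0.969. For Ctgf they were Dlg1, Nadk and Lrrc8c (0.971, 0.968 and 0.957), and for Cyr61 Clcf1, Ndrg1 and Osgep (0.968, 0.965 and 0.960). No gene appeared in more than one of these lists. They are the highest of 15388 genes over 8 libraries that share depth and tissue composition, and are given as a description only.

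**Figure D4:**
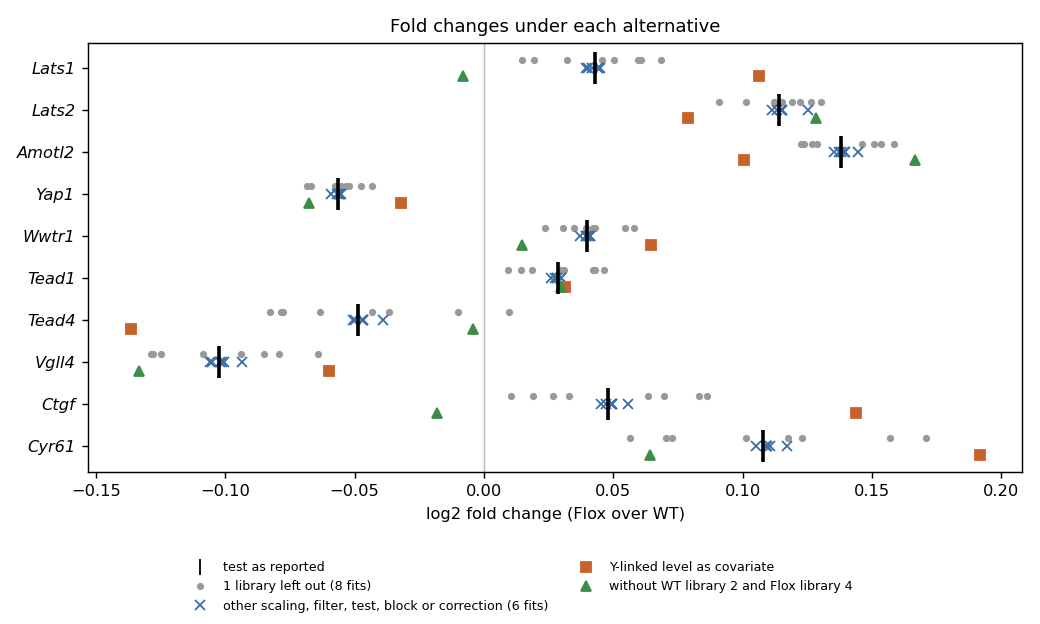
Log2 fold change of Flox over WT for the 10 genes under each alternative. The black bar is the value reported, grey points leave out 1 library each, crosses are other scalings, filters, tests or corrections, the square has the Y-linked level as a covariate, and the triangle leaves out both libraries low in Ttn. Amotl2 lies between 0.10 and 0.17 and Lats2 between 0.079 and 0.13 throughout, while Lats1, Tead4 and Ctgf cross 0.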

How the data were processed

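The authors deposited expected counts per Ensembl gene for each library; per the submitters' processing notes, reads were processed with cutadapt and RSEM 1.3.1, and the table's name gives GRCm38 with Ensembl release 91. RSEM divides reads that match several genes between them. Of the pathway genes named, Yap1, Tead4, Ctgf, Sav1, Tead3, Taok3, Ajuba and Gadd45a had values that were not whole in 100% of the libraries. Libraries were directional, but the strand setting of the counting is not given in the sources used here. Counts were rounded, filtered with filterByExpr, scaled with TMM and compared with edgeR 4.0.16 (glmQLFit, glmQLFTest, two-sided, group as the only term) in R 4.3.3, with Benjamini-Hochberg adjustment over 15388 genes. SEs were derived from the F statistic. Symbols, positions and exonic lengths came from GENCODE M21 (same assembly), which matched 53274 of 53465 identifiers. Likeness used log2(CPM + 0.5).

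Named were the 10 genes, Nrg1, pathway genes past FDR 0.05, and in each list the 2 other genes with the smallest p. Stk3, Stk4, Sav1, Mob1a, Mob1b, Nf2, Amotl1, Amot, Ankrd1, Axl, Gadd45a, Egr1, Fos, Ttn and the called markers were added after their values were seen. The members and lists were chosen with earlier results of these data known. Alternatives were RLE scaling, no filter, DESeq2 1.42.0, limma voom (limma 3.58.1), leaving out each library, a block for the replicate number, the summed level of 4 Y-linked genes as a covariate, and a GC and length correction (lowess, span 0.3). Fits were tested on simulated data.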

Additional observations from a re-analysis of the deposited data

Results flagged for a closer look

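The 10 genes, 10 other named pathway genes and Nrg1 gave 42 sets of 4 libraries. In 1 of these a single library lay apart, and about 2.1 would do so by chance. This was Ajuba in WT library 3, at 37.67 CPM where the remaining WT libraries lay between 42.69 and 43.27 CPM.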

How the results depend on the processing

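Over the 10 genes and 16 alternatives, 156 of 160 log2 fold changes kept their sign and their side of the threshold, which for these genes means that they did not pass; without a call, this does not show that the values are stable. The exceptions were Amotl2 under DESeq2 (0.14, adjusted p = 0.047), and 3 changes of sign near 0: Tead4 without WT library 1 (0.0098, within a range of -0.083 to 0.0098 when leaving out 1 library), and Lats1 (-0.0081) and Ctgf (-0.018) without both WT library 2 and Flox library 4. The last setting was chosen after seeing the data, and gave 120 calls over all genes. The number of the 10 genes called was 0, and 1 with DESeq2. It was 0 to 0 when leaving out 1 library, and 2 to 4 then had an unadjusted p below 0.05. With the Y-linked covariate it was 0, and 4 of the 10 had an unadjusted p below 0.05 in edgeR's test. These were Lats1, Amotl2, Ctgf and Cyr61, but not Lats2. Pathway genes called were 0, but 2 with no filter (Ajuba and Igfbp3), 2 with DESeq2 (Ajuba and Amotl2) and 1 with the replicate block (Igfbp3). Over all genes the count was 81, against 338 with no filter, 198 with DESeq2, 18 with the Y-linked covariate and 11 to 142 when leaving out 1 library (11 without Flox library 3, 142 without Flox library 4). The cause of these shifts was not tested.

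Same-numbered libraries had correlations of 0.0447 to 0.121 across genes in their deviations from the group means, against -0.0877 to 0.0195 for the 12 differently numbered pairs. As not every pair was over 0.1, they were treated as sharing only a number. Every library correlated best with its own number, a hint from the data and not from the design. With the replicate block, 93 genes and 0 of the 10 were called, with Amotl2 at 0.14 (edgeR's adjusted p = 0.0724). Of the 10, 3 then had an unadjusted p below 0.05: Amotl2, Lats2 and Vgll4. Vgll4 was at -0.10 with an unadjusted p of 0.0147 in edgeR's test, against 0.0567 without the block.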
